A study of Mus musculus with 59 samples.

Results

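The enzymes of muscle glycolysis were followed through 10 genes, chosen by their symbols: Pfkm, Pygm, Pkm, Aldoa, Eno3, Gapdh, Ldha, Pgam2, Hk2 and Gpi1. All 10 symbols were found among the 24972 rows of each of 4 tables of normalized RNA-seq values, and all 10 passed the limit on low values in both muscles, against 9 in liver and in AML12 cells, where Pgam2 did not. Hydroxycitrate (HC), an inhibitor of ATP-citrate lyase (ACLY), was given to wild-type male C57BL/6 mice and to AML12 cells, a mouse hepatocyte line. Soleus and liver came from 41-week-old mice fed a standard diet (STD) or, from 20 weeks of age, that diet with HC at 7.5 g/kg, and all were fasted for 16 h (n = 5 per group and tissue). Gastrocnemius came from mice aged 6 ± 1 months at the start, in 5 groups of 3: uninjected mice (C), mice whose hind limb was injured with cardiotoxin (CTX) and sampled at 2 or 30 days post injury (DPI), and injured mice that also ate HC after the injection (CTX-HC, 2 and 30 DPI). By the methods, C and the 2 DPI groups were formed on day 28 from mice not injected before. HC was eaten for 2 or 30 days, so comparing these times with HC also changes the length of treatment. No uninjured group received HC, so the comparison of CTX-HC with C holds injury and HC together. AML12 cells carried siRNA of a control sequence (siC) or one aimed at Acly (siAcly) and stayed untreated (Ut) or were given 1 mM HC for 16 h (n = 3 per group), and 4 further groups with SB or Bemp entered the fit but are not compared here. Each gastrocnemius library came from a separate mouse. For soleus, liver and AML12 cells the sources used here do not say that the libraries of a group were separate animals or cultures, so p-values there measure the spread between these libraries.

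Glycolysis breaks glucose down to pyruvate in the cytosol, and in muscle much of the glucose phosphate that enters it comes from stored glycogen. Most of its steps can be run by several enzymes from separate genes, and skeletal muscle, most of all its fast fibres, uses a set of muscle forms. Muscle fibres that are killed by cardiotoxin, a snake venom toxin, are cleared by infiltrating leukocytes and rebuilt from satellite cells over the following weeks.

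Of the 10 genes, Pygm encodes the phosphorylase that releases glucose phosphate from muscle glycogen and Hk2 the hexokinase that traps glucose taken up from blood. Gpi1, Pfkm and Aldoa encode the isomerase, the phosphofructokinase and the aldolase of the upper pathway. Gapdh, Pgam2, Eno3 and Pkm encode enzymes of the lower pathway, down to pyruvate, and Ldha encodes the lactate dehydrogenase subunit that is typical of fast muscle. Reads of Gapdh, Ldha, Pkm and Aldoa may be shared with near-identical processed copies elsewhere in the genome, so the values of these 4 are less certain.

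Promoter windows (250 bases before to 50 after a start, RefSeq, GRCm38.p6) were present for all 10 genes, 17 windows in all. The E-box CAGCTG, a form bound by myogenic factors, was found on either strand (it is its own reverse complement) in at least 1 window of 6 of the 10 genes, Pygm, Pkm, Aldoa, Eno3, Pgam2 and Gpi1. Among all 27025 genes with a window, 18.3% held it. Of the 17 windows 6 held it, against 16.3% of all 32851 windows. A gene with several windows is counted more readily. The other E-box, CACGTG, was found for 2 genes, Pfkm and Ldha (8.09% of all genes), and ACGTG, the core of the hypoxia response element, which CACGTG contains, for 7 (21.8% of all genes). By window, ACGTG was in 9 of the 17, against 19.6% of all windows. The MEF2 form CTAAAAATA and the TATA box form TATAAA were in none of the 17 windows, against 0.588% and 15.7% of all genes. A match is a description of letters and not a site of binding. The windows of Pgam2, Eno3 and Pygm are printed because their values differed most after injury with HC. That of Hk2 is printed because its values alone overlapped those of C in that comparison. Capitals mark CAGCTG, and the windows lie at chr11:5803747-5804046 (minus strand) for Pgam2, chr11:70656926-70657225 (plus) for Eno3, chr19:6384158-6384457 (plus) for Pygm and chr6:82774405-82774704 (minus) for Hk2.
Pgam2: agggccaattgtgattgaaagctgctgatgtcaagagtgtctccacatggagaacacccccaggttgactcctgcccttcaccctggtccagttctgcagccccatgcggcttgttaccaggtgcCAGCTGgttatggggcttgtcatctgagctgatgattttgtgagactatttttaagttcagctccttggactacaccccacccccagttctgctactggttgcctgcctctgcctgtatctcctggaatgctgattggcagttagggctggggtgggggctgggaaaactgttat
Eno3: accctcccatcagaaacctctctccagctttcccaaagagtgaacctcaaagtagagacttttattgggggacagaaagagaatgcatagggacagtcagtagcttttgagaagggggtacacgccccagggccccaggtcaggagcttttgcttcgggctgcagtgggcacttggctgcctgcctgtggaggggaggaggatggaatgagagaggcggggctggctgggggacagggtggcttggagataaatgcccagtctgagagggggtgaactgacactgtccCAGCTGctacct
Pygm: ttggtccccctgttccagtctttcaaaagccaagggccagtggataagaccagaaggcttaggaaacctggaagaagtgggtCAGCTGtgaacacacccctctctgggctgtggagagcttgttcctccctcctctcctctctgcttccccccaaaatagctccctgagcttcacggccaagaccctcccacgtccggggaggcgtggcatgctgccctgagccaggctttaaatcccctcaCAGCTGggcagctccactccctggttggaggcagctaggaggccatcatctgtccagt
Hk2: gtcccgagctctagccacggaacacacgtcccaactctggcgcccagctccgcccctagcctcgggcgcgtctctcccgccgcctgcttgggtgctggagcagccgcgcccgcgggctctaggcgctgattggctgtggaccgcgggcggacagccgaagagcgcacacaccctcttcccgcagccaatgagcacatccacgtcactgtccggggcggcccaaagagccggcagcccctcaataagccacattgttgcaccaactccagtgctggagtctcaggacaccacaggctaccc
The letters occurred once in the windows of Pgam2 and Eno3, at 2 places in that of Pygm and not in that of Hk2. Pfkm, Gapdh and Ldha also held them in no window. At 2 DPI these genes too were lower in every CTX-HC library than in every C library, as were 25.2% of all tested genes.

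Several libraries stood apart from their groups. In gastrocnemius, the first principal component over all tested genes (51.7% of the variance) placed C libraries between −71.4 and −16.0 and CTX-HC 2 DPI libraries between 44.0 and 111. CTX 2 DPI replicate 3, at −16.3, lay within the range of C, and CTX-HC 30 DPI replicate 3, at 71.5, lay among the 2 DPI libraries, although its summed slow-fibre genes were in the 30 DPI range. CTX 30 DPI replicate 1, at 1.53, also lay away from its group (−76.7 and −68.0). It was kept in every fit without those 2 libraries. Comparisons between injured groups or with C that hold either library are given with and without both of them, a choice made after the data were seen. In the AML12 cells, Acly was 215.3 to 598.5 in the 12 siAcly libraries and 2575.7 to 3859.6 in 11 siC libraries. It was 404.4 in the library labelled siC Bemp replicate 1. In the comparisons, that library entered only the shared spread. It is also included in the AML12 levels, ranges and shares given below. Its enzymes took 0.748% of its summed values, the lowest such share of any AML12 library. No enzyme passed the test in any AML12 comparison with or without that library. On the first component of the AML12 table (31.0% of the variance), the 7 libraries that the labels number 81 to 87 lay between 28.3 and 53.1 and the other 17 between −32.4 and 13.5. Every AML12 group held 1 library of that series except siC Ut, which held 0, so the comparisons with siC Ut are also given with the series as a covariate.

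Markers matched the labelled tissues: slow-fibre genes summed to 315251 to 459039 in soleus, where such fibres are common, and hepatocyte genes to 630072 to 1063667 in liver, against 1898 to 40853 in AML12 cells. Both muscles held the muscle forms of these enzymes in abundance. The 10 genes took 1.55% to 1.97% of the summed normalized values of a soleus library and 2.05% to 4.30% of a gastrocnemius library, against 0.748% to 1.33% in AML12 cells and 0.205% to 0.276% in liver. The tables were normalized separately, and the labels name rRNA depletion for liver and soleus where the methods name an mRNA kit, so levels in different tables are set side by side and were not tested. Levels of gastrocnemius are over all 15 libraries, injured and uninjured, and those of AML12 cells over all 24. Per kb of transcript, Aldoa had the highest mean level in gastrocnemius (186258) and in soleus (33678), and its range did not overlap that of any other member in soleus. In the C libraries alone, the mean of Aldoa was 218447 per kb. In gastrocnemius, Pygm (54793), Gapdh (51093) and Eno3 (47329) followed with ranges that overlapped, then Pkm (30390), Pfkm (28759), Pgam2 (23673) and Ldha (23425), also with overlap. Gpi1 (5942) and Hk2 (2790) were lowest per kb, and all Gpi1 libraries lay under all Ldha libraries. In soleus the order after Aldoa was Gapdh (16666), Pgam2 (9992), Eno3 (9420), Pygm (7372), Pkm (6386), Pfkm (5684), Ldha (3249), Gpi1 (2172) and Hk2 (1176), with overlap between neighbours from Pgam2 to Pfkm and none between the others. Dividing by the union of exons in place of the transcript moved Gapdh down to rank 6 in gastrocnemius and rank 5 in soleus, and left Aldoa highest in both.

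In both muscles the gene from the set of 10 held most of the values at 6 of 7 steps examined, all but lactate dehydrogenase. Gastrocnemius averages are over injured and uninjured libraries together, so they do not rank the muscles. The C ranges of Hk2, Eno3 and Pgam2, given below, lie above these averages. Of the values of Hk1, Hk2 and Hk3 per kb, Hk2 held 92.8% on average in gastrocnemius and 95.7% in soleus, but 6.48% to 13.3% in AML12 libraries, where Hk1 held 90.5% on average. Pfkm held 99.4% and 99.1% of phosphofructokinase in the muscles, 28.2% in AML12 cells and 37.5% in liver. Eno3 held 95.9% and 96.2% of enolase in gastrocnemius and soleus, 5.80% in AML12 cells and 1.12% in liver, and Pygm held over 98% of phosphorylase in every muscle library. Pgam2, at 97.6% and 97.9% of phosphoglycerate mutase in the muscles, was listed at 0 in 9 of 10 liver and 23 of 24 AML12 libraries.
Pkm did not follow the same division, and values per gene do not tell transcript forms of Pkm apart. It held 96.7% of pyruvate kinase in AML12 cells and 19.9% in liver, where Pklr held 80.1%. Lactate dehydrogenase separated the muscles from each other. Ldha held 84.4% to 99.1% in gastrocnemius libraries and 20.4% to 27.1% in soleus libraries, where Ldhb, the heart-type subunit typical of oxidative fibres, held 72.9% to 79.6%, so the ranges did not overlap. In liver and AML12 cells Ldha held over 99% in every library.

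**Figure D1:**
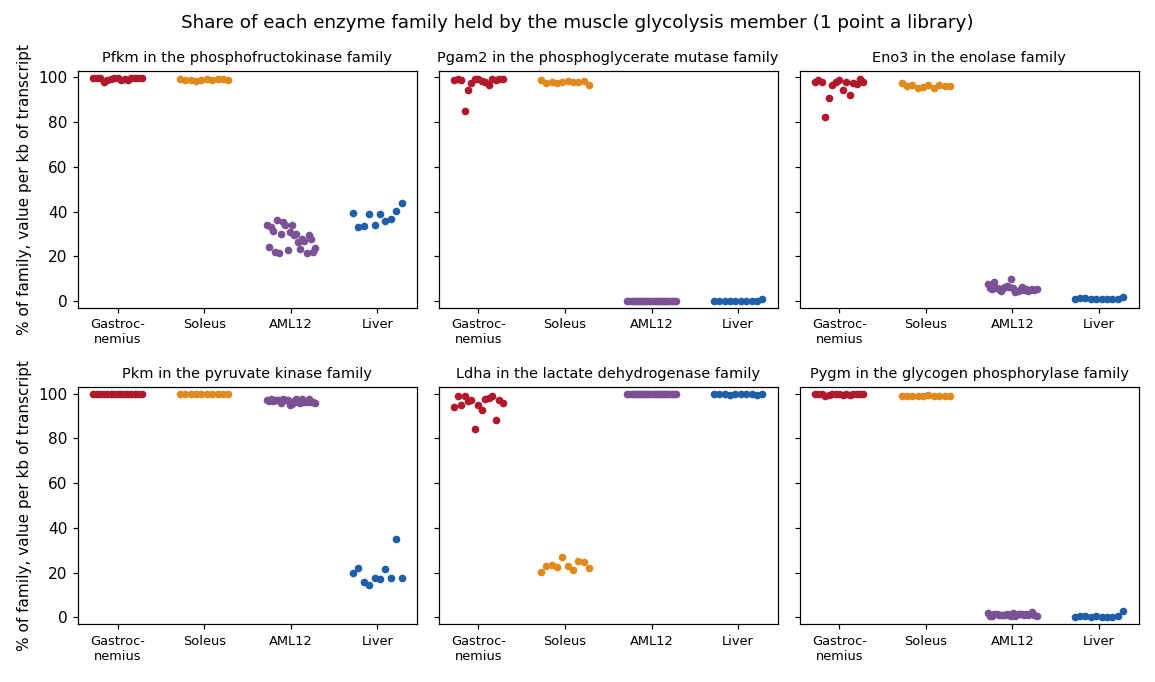
Percent of the values per kb of 6 enzyme families held by the muscle form, by table, with 1 point per library. Ldha holds 84.4% to 99.1% of lactate dehydrogenase in gastrocnemius and 20.4% to 27.1% in soleus, and Pgam2 is near 0 in liver and AML12 cells.

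At 2 DPI in mice with HC, 9 of the 10 enzymes were lower in every CTX-HC library than in every C library, and 1, Pgam2, passed the test. Over all 14033 genes tested, 25.2% were lower in every library in this way, and 9.93% passed at an adjusted p under 0.05 in either direction (749 higher and 644 lower), by limma on log2(value + 1). The median log2 fold change of the 10 enzymes was −1.09, against 0.02 for all tested genes. Its size depended on the scaling: it was −0.57 after total scaling (0.43 for all genes) and −0.55 after quantile scaling (−0.12 for all genes). Hk2 alone overlapped C. All values of a library summed to 25.1 M to 30.2 M in C and 16.6 M to 21.9 M in CTX-HC, of which the 10 enzymes made 3.36% to 4.202% and 2.05% to 2.65%. In bulk tissue, fewer fibres and less RNA per fibre cannot be told apart.

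Pgam2, the muscle phosphoglycerate mutase, was 23498, 26812 and 22449 in the C libraries and 5561, 11947 and 13100 in the CTX-HC libraries at 2 DPI. It fell by 1.34 on the log2 scale (standard error 0.38, adjusted p = 0.0446, limma). The highest injured library lay well under the lowest C library, and the lowest was CTX-HC replicate 1. The call was lost when any 1 of C replicates 1 to 3 or of CTX-HC replicates 1 and 2 was left out, with adjusted p up to 0.193, and stayed without CTX-HC replicate 3 (adjusted p = 0.0342).

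Eno3, the muscle enolase, was 77036, 136878 and 76518 in C and 20661, 35628 and 45917 in CTX-HC at 2 DPI, which gave −1.53 as its log2 fold change (standard error 0.49, adjusted p = 0.0600). Pygm was 183547, 281446 and 165321 in C and 54334, 73405 and 87845 in CTX-HC, or −1.54 on that scale (standard error 0.52, adjusted p = 0.0668). Both had larger differences than Pgam2 with a wider spread, and in both C replicate 2 was far above the other C libraries. C replicate 2 was the highest C library for 9 of the 10 enzymes. It and CTX 30 DPI replicate 2 are the only gastrocnemius libraries that the labels number above 100, and with that series of numbers as a covariate Pgam2 had an adjusted p of 0.0865.

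Ldha was 49704, 62786 and 45420 in C and 17385, 26501 and 29415 in CTX-HC (log2 fold change −1.13, standard error 0.36, adjusted p = 0.0591). Gapdh was 62451, 108790 and 70135 in C and 30380, 33410 and 45730 in CTX-HC (−1.12, standard error 0.47, adjusted p = 0.110). Gapdh is often used as a reference gene in expression assays. Here its 2 groups did not overlap, but it did not pass the test, and 25.2% of all tested genes were lower in every library. Aldoa (−1.06), Pfkm (−1.02), Gpi1 (−0.76) and Pkm (−0.55) had smaller differences on the log2 scale, with adjusted p of 0.0972 to 0.325. Aldoa remained the most abundant per kb, at 113207 to 197449 normalized values against 290136 to 384112 in C.

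Hk2, the hexokinase at the entry of glucose, was 13838, 12619 and 13758 in C and 10171, 12017 and 22270 in CTX-HC (log2 fold change 0.06, standard error 0.47, adjusted p = 0.935). The C libraries were close together, and the injured libraries lay on both sides of them.

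**Figure D2:**
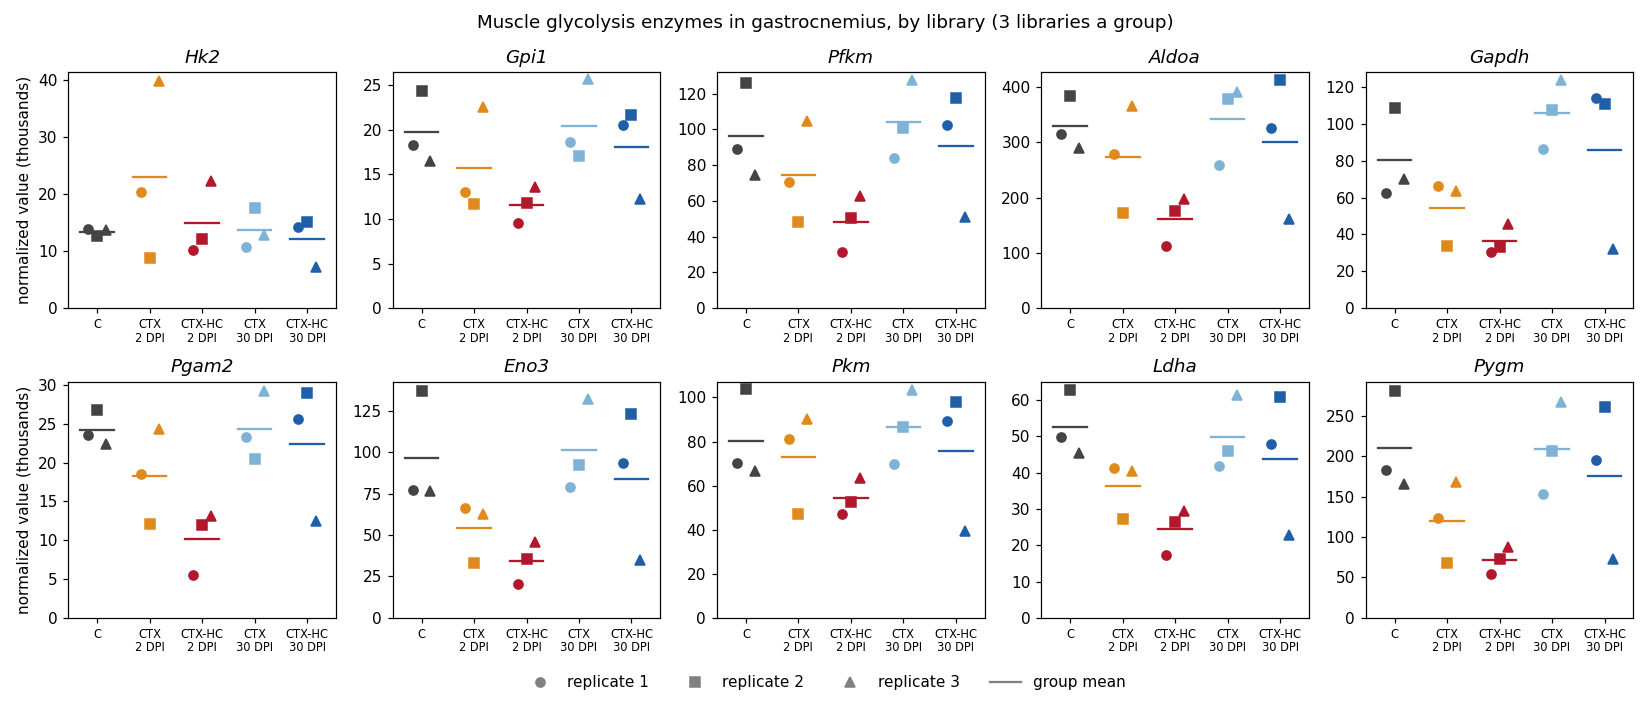
Normalized values of the 10 enzymes in gastrocnemius by group on linear axes from 0, with 1 point per library and a line at each group's mean (n = 3). All CTX-HC 2 DPI libraries lie under all C libraries for every enzyme but Hk2, and CTX-HC 30 DPI replicate 3 lies low for all 10.

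After injury without HC, 9 enzymes had a lower mean log2 value than in C, and none passed. At 2 DPI, 0% of the 14033 genes passed between CTX and C (limma; 2095 had an unadjusted p under 0.05), and no enzyme did. Eno3 and Ldha were lower in every CTX library than in every C library, 2 of 10 enzymes against 15.6% of all genes. The log2 fold changes ran from −0.86 for Pygm and −0.85 for Eno3 to −0.16 for Pkm, with Hk2 at 0.52, a median of −0.43 and adjusted p of 0.412 to 0.849.
The CTX libraries differed widely among themselves. Pygm was 124032, 68025 and 167691, Pgam2 was 18577, 12093 and 24257, and Hk2 was 20283, 8726 and 39710 in replicates 1 to 3. Replicate 3, which lay within the C range on the first component, was highest for these 3 enzymes, and replicate 2 was lowest. Without the libraries that stood apart, the log2 fold changes were −1.15 for Pygm, −0.99 for Eno3 and −0.01 for Hk2, and no enzyme passed (adjusted p from 0.118 to 0.990). In that case 7 of the 10 enzymes were lower in both remaining CTX libraries than in every C library, against 24.6% of 13881 genes.

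HC and CTX libraries at 2 DPI were not separated for any enzyme. The log2 fold changes of CTX-HC against CTX lay between −0.88 (Pgam2, adjusted p = 0.662) and −0.38, all 10 below 0 with a median of −0.60, and the groups overlapped for all 10. Over all genes 0% passed (1005 had an unadjusted p under 0.05) and 7.35% were lower in every library. Without the 2 libraries that stood apart, the differences were smaller, from −0.65 for Pgam2 to 0.07 for Hk2 (adjusted p from 0.946 to 0.982). CTX-HC and CTX were each compared with the same C libraries, so the call of Pgam2 with HC and its absence without HC do not show a difference between them.

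**Figure D3:**
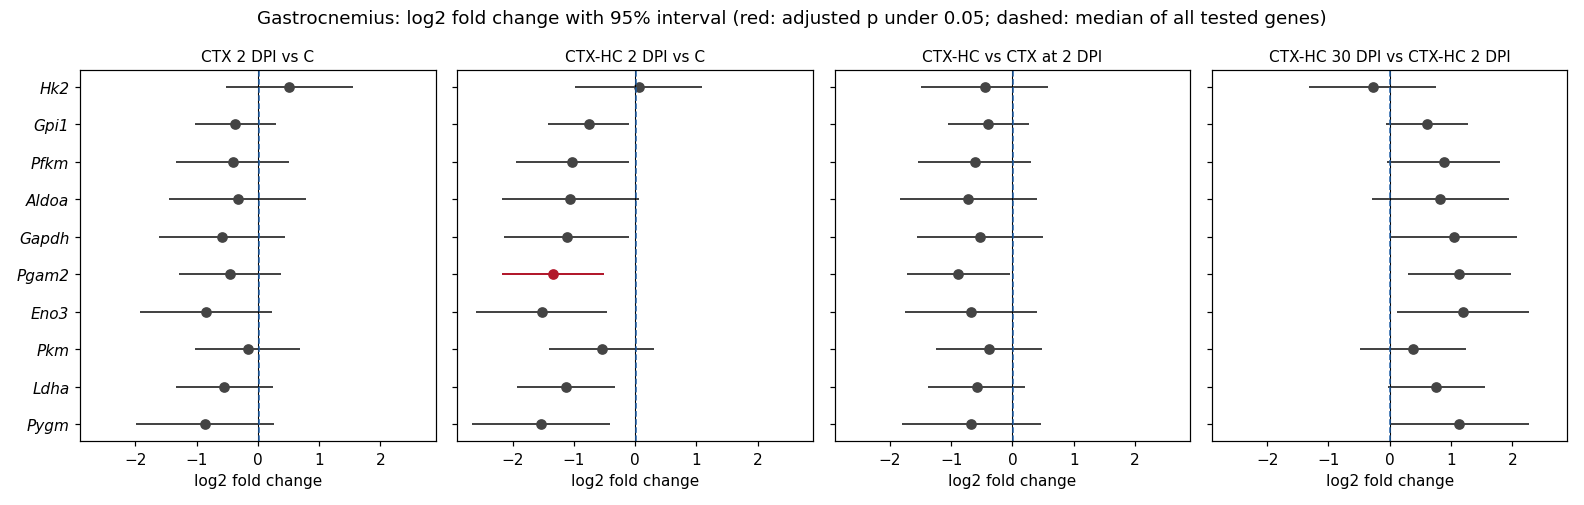
Log2 fold changes of the 10 enzymes in gastrocnemius with 95% intervals from limma, in 4 comparisons, with a dashed line at the median of all tested genes. Pgam2 in CTX-HC 2 DPI against C, at −1.34, is the point that passed the adjusted limit.

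Neighbouring genes of the pathway were counted by kind, in a comparison where 9.93% of all tested genes passed in either direction. Of 5 genes of steps that muscle shares with other tissues, 3 fell in CTX-HC at 2 DPI against C and none rose (median log2 fold change −1.62): Bpgm, the bisphosphoglycerate mutase (−1.99, standard error 0.39), Gpd1, the cytosolic glycerol phosphate dehydrogenase (−1.87, standard error 0.40), and Tpi1, the triose phosphate isomerase (−1.62, standard error 0.41), with adjusted p of 0.0174, 0.0224 and 0.0334. Of 13 tested enzymes that other tissues use for the members' steps, 2 rose and none fell (median 1.29). These were Pgam1, the ubiquitous mutase (1.63, standard error 0.42, adjusted p = 0.0358), and Hk3, a hexokinase of leukocytes (4.16, standard error 1.20, adjusted p = 0.0466). Of 12 glycogen genes, Phkg1, the catalytic subunit of muscle phosphorylase kinase, fell by 1.70 on the log2 scale (standard error 0.36). Of 12 transport and pyruvate genes, Slc2a1, the glucose transporter GLUT1, rose by 1.39 (standard error 0.22, adjusted p = 0.00888), and of 8 regulators, Pfkfb3, which makes the activator of phosphofructokinase, fell by 2.19 (standard error 0.53, adjusted p = 0.0311). For the glycogen, transport and regulator lists the calls were near the share of all genes.
These counts too were larger in the fit without CTX 2 DPI replicate 3 and CTX-HC 30 DPI replicate 3, with the fold changes as above. All 5 genes of the shared steps then fell, and 7 of the 13 other forms rose and none fell. Of the 12 glycogen genes 7 fell and 2 rose, of the 12 transport and pyruvate genes 6 fell and 1 rose, and of the 8 regulators 2 fell, where 31.2% of all tested genes passed in either direction.

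The muscle forms held a smaller part of their families in these libraries. Pgam2 held 98.9% to 99.5% of phosphoglycerate mutase per kb in C and 84.8% to 97.8% in CTX-HC at 2 DPI. Eno3 held 97.9% to 98.7% of enolase in C and 82.4% to 96.7% in CTX-HC, and Hk2 held 96.1% to 98.3% of the sum of Hk1, Hk2 and Hk3 in C and 75.7% to 94.4% in CTX-HC, while Hk3 went from 0.204% to 0.989% in C to 3.62% to 16.7%. These ranges did not overlap between the groups and were not tested. Ldha, in contrast, held 93.9% to 98.9% in C and 96.7% to 98.9% in CTX-HC.

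Myofibre and fast-fibre sums were lower, and leukocyte sums higher, in the CTX-HC 2 DPI libraries than in C. The summed value of 10 myofibre genes was 6532018 to 8373314 in C and 2839174 to 4842176 in CTX-HC at 2 DPI (median log2 fold change −0.97, 1 of 10 fell). The fast-fibre sum was 2566683 to 3802706 in C and 910745 to 1459151 in CTX-HC. Of 10 fast-fibre genes 2 fell (median −1.36), and of 8 slow-fibre genes 3 fell (median −2.39). Over all tested genes 9.93% passed in either direction, a share near that of the myofibre genes. Of 9 leukocyte genes 2 rose (median 2.62), and the sum of all 10 on the list was 793.03 to 3637.5 in C and 5765 to 24973 in CTX-HC, with S100a9, a neutrophil marker, at 0 in all 3 C libraries, while 6 fibroblast genes had a median of 1.67 with none called. Without the 2 libraries that stood apart, 31.2% of all tested genes passed in either direction. Then 2 myofibre, 5 fast-fibre and 4 slow-fibre genes fell, and 6 of 8 tested leukocyte genes and 3 of 6 fibroblast genes rose. No endothelial, Schwann cell, regenerating muscle, adipocyte, hepatocyte or erythroid gene passed, with list medians from −2.02 (hepatocyte) to 1.26 (adipocyte). The part of these markers in the result was not tested.
As a percent of the myofibre sum, the 10 enzymes made 12.5% to 15.1% in C and 12.0% to 13.2% in CTX-HC at 2 DPI, ranges that overlapped. With each library centred on the 10 myofibre genes, a scaling chosen after the data were seen that raised the median of all genes to 0.95, Pgam2 had a log2 fold change of −0.40 (adjusted p = 0.114). On the same scaling the median of the 10 enzymes was −0.15, and Hk2 had 1.00 (adjusted p = 0.0244, limma), close to that median of all genes.

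**Figure D4:**
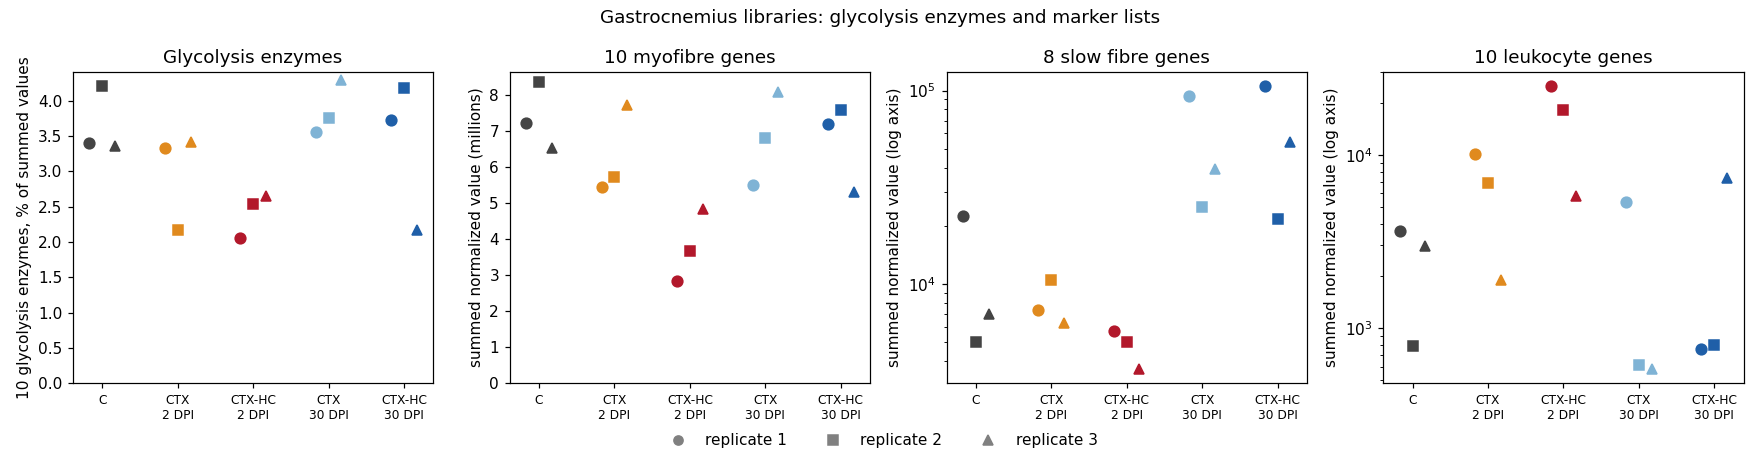
Share of the 10 enzymes in the summed values of each gastrocnemius library (percent), and summed normalized values of myofibre, slow-fibre (log axis) and leukocyte genes (log axis), with 1 point per library by group. The CTX-HC 2 DPI libraries have the lowest myofibre sums, 2839174 to 4842176, and leukocyte sums of 5765 to 24973.

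Leaving out CTX 2 DPI replicate 3 and CTX-HC 30 DPI replicate 3, neither of them in this comparison, lowered the shared spread and brought the count of enzymes that fell in CTX-HC at 2 DPI from 1 to 7, against 31.2% of 13881 genes in either direction. The 7 were Pfkm, Pygm, Eno3, Gapdh, Ldha, Pgam2 and Gpi1 (adjusted p from 0.0107 to 0.0371), and Aldoa (0.0698), Pkm (0.174) and Hk2 (0.905) did not pass. The fold changes were the same, since the 2 groups compared held the same libraries.

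At 30 DPI no enzyme passed the test against C, with or without HC. Over all genes 0% passed between CTX and C at 30 DPI (437 at an unadjusted p under 0.05) and 0% between CTX-HC and C (388), and no enzyme was separated, against 10.9% and 8.2% of all genes. The log2 fold changes lay between −0.09 and 0.42 (Gapdh) for CTX and between −0.40 and −0.08 for CTX-HC. The latter values rest on CTX-HC 30 DPI replicate 3. In it Pygm was 72633 against 195277 and 261170 in the other replicates, and Gapdh was 32270 against 114012 and 110536. Without it, all 10 values against C were above 0, from 0.05 for Ldha to 0.52 for Gapdh, and none passed, while 2, Gapdh and Hk2, were higher in both remaining libraries than in every C library, against 16.2% of 13881 genes. That library was the lowest of its group for all 10 enzymes, and its leukocyte sum was 7367 against 753.7 and 797.55. CTX-HC and CTX at 30 DPI had log2 fold changes of −0.50 to −0.19, with 0% of all genes called (106 at an unadjusted p under 0.05), 2.19% separated and no enzyme separated. Without the libraries that stood apart they were 0.07 to 0.18 (adjusted p = 1).

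Between 2 and 30 DPI most enzymes had a higher mean log2 value at the later time. With HC this depended on the scaling. With each library centred on the 10 myofibre genes, the median log2 fold change of the enzymes was −0.15 (−0.99 for all genes). With CTX alone, Eno3, Gapdh and Ldha were higher in every 30 DPI library than in every 2 DPI library, 3 of 10 enzymes against 14.5% of all genes, and no enzyme passed, against 0.257% of all genes (36). Gapdh went from 66267, 33539 and 63294 at 2 DPI to 86499, 107458 and 123511 at 30 DPI (log2 fold change 1.01), and Hk2 had −0.52 (adjusted p of the 10 from 0.237 to 0.698). Without CTX 2 DPI replicate 3, and CTX-HC 30 DPI replicate 3 from the shared spread, Gapdh and Pygm both had 1.15, Pkm went from 0.28 to 0.46, and Hk2 had 0.01, no longer below 0. The median of the 10 was then 0.69 in place of 0.45, and 7 enzymes were higher in every 30 DPI library, against 20.4% of 13881 genes. None passed (adjusted p from 0.0675 to 0.990), against 8.21% of those genes. With HC, no enzyme was separated, against 11.4% of all genes higher in every library, and none passed, against 9.74% of all genes (590 higher, 777 lower). Eno3 (1.20, adjusted p = 0.122), Pgam2 (1.14, adjusted p = 0.0708), Pygm (1.13, adjusted p = 0.158) and Gapdh (1.04, adjusted p = 0.153) had the largest log2 fold changes, and the median of the 10 was 0.85.
Here CTX-HC 30 DPI replicate 3 decided the count. Without it and CTX 2 DPI replicate 3, 7 enzymes rose between 2 and 30 DPI with HC, against 37.3% of 13881 genes. Gapdh then rose by 1.64, Eno3 by 1.73, Pygm by 1.68 and Pgam2 by 1.51 (adjusted p of 0.00612, 0.0113, 0.0112 and 0.00664), and Pfkm, Ldha and Gpi1 also rose. Aldoa, Pkm and Hk2 did not pass. Each enzyme but Hk2, 9 of 10, was then higher in both remaining 30 DPI libraries than in every 2 DPI library, against 30.9% of those genes.

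With all libraries, the shared steps rose from 2 to 30 DPI with HC in 3 of 5 genes (median 1.39), with Bpgm at 1.59, Gpd1 at 1.504 and Tpi1 at 1.39. Among the 13 other forms, Ldhb rose by 2.75 and Hk3 and Pgam1 fell by 6.28 and 1.68. Slc2a1 fell by 1.17 and Phkg1 rose by 1.39. Over all tested genes 9.74% passed in either direction. All 8 slow-fibre genes rose (median 5.01) and 4 of 9 leukocyte genes fell (median −3.10), with 1 of 10 myofibre and 1 of 10 fast-fibre genes up. The part of these markers in the difference was not tested.
Without the 2 libraries that stood apart, all 5 shared steps rose (median 1.87), and 1 of the 13 other forms rose and 4 fell. Of the 12 glycogen genes 8 rose and 1 fell, of the 12 transport and pyruvate genes 7 rose and 1 fell, and of the 8 regulators 2 rose. Ldhb then rose by 3.29 and Hk3 fell by 7.49. The slow-fibre genes rose as before (8 of 8, median 5.03), 5 of 10 myofibre and 5 of 10 fast-fibre genes rose, and all 8 tested leukocyte genes fell (median −3.99). In that fit 37.3% of all tested genes passed in either direction.
The effect of HC at 30 DPI less that at 2 DPI had log2 values of 0.03 to 0.69 in the 10 enzymes (adjusted p = 0.999), with 0% of all genes called (355 at an unadjusted p under 0.05). Without the 2 libraries they were 0.05 to 0.83 (adjusted p from 0.936 to 0.986), with Pgam2 the highest in both fits.

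Over the 15 gastrocnemius libraries the enzymes varied together, with the exception of Hk2. After each gene's log2 values were centred on their mean, the root mean square difference between Pfkm and Aldoa was 0.12 and that between Pygm and Eno3 was 0.15, while Hk2 was the farthest member from each of the other 9 (0.49 to 0.83). Among the tested genes outside the 10, the nearest profile to Pygm was that of Myh4, the myosin heavy chain of the fastest fibres (0.12), to Eno3 that of Myoz1, a Z-disc protein of fast fibres (0.13), and to Pfkm that of Myom1, a protein of the M band (0.12). Aldoa was nearest to Hoxc10 (0.10), Gpi1 to Mettl26 (0.11), Pgam2 to Dnajb5 (0.13), Pkm to Abcf2 (0.13), Ldha to 4833439L19Rik (0.13) and Gapdh to Chchd2 (0.16). The nearest gene to Hk2, Phospho1, was at 0.25. These values describe likeness over libraries that share injury and cell content.

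In soleus, no enzyme passed the test between HC and STD mice. Over 12067 genes 0% passed (limma; 609 had an unadjusted p under 0.05) and 1.1% had groups that did not overlap, and of the 10 enzymes none passed, none was separated and none had an unadjusted p under 0.05. Pygm was 21813, 21226, 23464, 21856 and 21055 with STD and 24088, 20283, 20889, 18420 and 18771 with HC (log2 fold change −0.10, 95% interval −0.28 to 0.08). Gapdh was 27631, 23613, 23486, 23495 and 23538 with STD and 29194, 21534, 23041, 19369 and 21753 with HC (−0.09, interval −0.32 to 0.13). Replicate 1 was the highest HC library for both enzymes and the highest STD library for Gapdh, and the groups overlapped.
The other 9 enzymes than Hk2 had small negative log2 fold changes, from −0.13 for Aldoa to −0.03 for Eno3 and Ldha, with a median over the 10 of −0.07. The widest of their intervals was that of Aldoa, −0.38 to 0.12. Hk2 was 4756, 4985, 5055, 4931 and 9977 with STD and 4524, 10387, 7132, 8970 and 4134 with HC, a log2 fold change of 0.22 (interval −0.37 to 0.80). Its HC libraries fell both below and above the STD libraries.
None of the pathway genes around them passed either. Tpi1 (−0.02), Pgk1, the phosphoglycerate kinase (−0.05), Ldhb (−0.03) and Gys1, the muscle glycogen synthase (−0.01), had log2 fold changes near 0. The median over 5 shared steps was −0.09 and over 12 glycogen genes −0.07. The 4 Schwann cell markers were higher in HC soleus (median 1.25, none called), with a sum of 747 to 1260 in STD and 1235 to 5263 in HC, while 10 myofibre genes had a median of −0.06. The part of the Schwann cell markers in these values was not tested.

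In liver, where the muscle forms were sparse, 0% of 11497 genes passed (488 had an unadjusted p under 0.05), 0.618% were separated, and no enzyme was either. Ldha, the most abundant of the 10 in liver per kb (7134), was 12014, 11397, 11435, 12656 and 12106 with STD and 12994, 16234, 13364, 9478 and 14311 with HC (log2 fold change 0.13, interval −0.14 to 0.41). The HC libraries spread on both sides of the STD libraries. Gapdh (4190 per kb) had 0.09 (interval −0.09 to 0.27), Gpi1 −0.05 (interval −0.21 to 0.11) and Aldoa −0.20 (interval −0.45 to 0.06).
Hk2 was 16.7, 8.34, 6.32, 28.7 and 16.7 with STD and 4.07, 11.6, 14.1, 9.23 and 7.09 with HC, levels near the limit on low values, with a log2 fold change of −0.60 (interval −1.502 to 0.31). Pygm was 4.77, 7.28, 5.26, 12.98 and 66.7 with STD and 7.12 to 11.4 with HC. The STD library at 66.7, replicate 5, also had the only Pgam2 value above 0 (6.83), the highest myofibre sum (906.81, against 144.91 at the lowest) and the highest fast-fibre sum (489.82, with a group median of 2.12). The part of these markers in its Pygm value was not tested.

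AML12 cells expressed Gapdh (20612 per kb), Pkm (16913), Aldoa (13098) and Ldha (11440) with ranges that overlapped between neighbours, then Gpi1 (4061), Eno3 (486), Pfkm (336), Hk2 (35.3) and Pygm (2.93). Lowering Acly moved no enzyme past the limit. Between siAcly and siC in untreated cells, 0.187% of 12296 genes passed (23) and 23.9% were separated, and of the 9 tested enzymes none passed and 1, Eno3, was separated. Eno3 was 579, 796 and 681 in siC and 1189, 975 and 912 in siAcly (log2 fold change 0.58, standard error 0.21, adjusted p = 0.159). For Eno3 the 3 siAcly libraries were all above the 3 siC libraries. Aldoa had 0.41 and Pygm, near the limit on low values, −0.50. The highest Eno3 value, 1189, was from the siAcly Ut library of the 81 to 87 series. With that series as a covariate, Eno3 had 0.49 (adjusted p = 0.123), and again no enzyme passed, while 188 of 12296 genes did.
With HC, no enzyme passed in either background. In siC cells 0% of genes passed (42 at an unadjusted p under 0.05) and 2.51% were separated, with enzyme log2 fold changes of −0.22 (Pfkm) to 0.21 (Pygm), or −0.21 to 0.17 with the number series as a covariate. In siAcly cells 0% passed (271) and 6.27% were separated, with −0.29 (Eno3) to 0.43 (Pygm). Eno3 was 760, 857 and 885 in siAcly cells with HC, under all 3 untreated siAcly libraries, 1 of 9 enzymes (adjusted p = 1). The difference between the effects of HC in siAcly and siC cells was −0.38 for Eno3 (standard error 0.29) and −0.29 with the covariate, with 0% of all genes called (63 at an unadjusted p under 0.05).

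**Figure D5:**
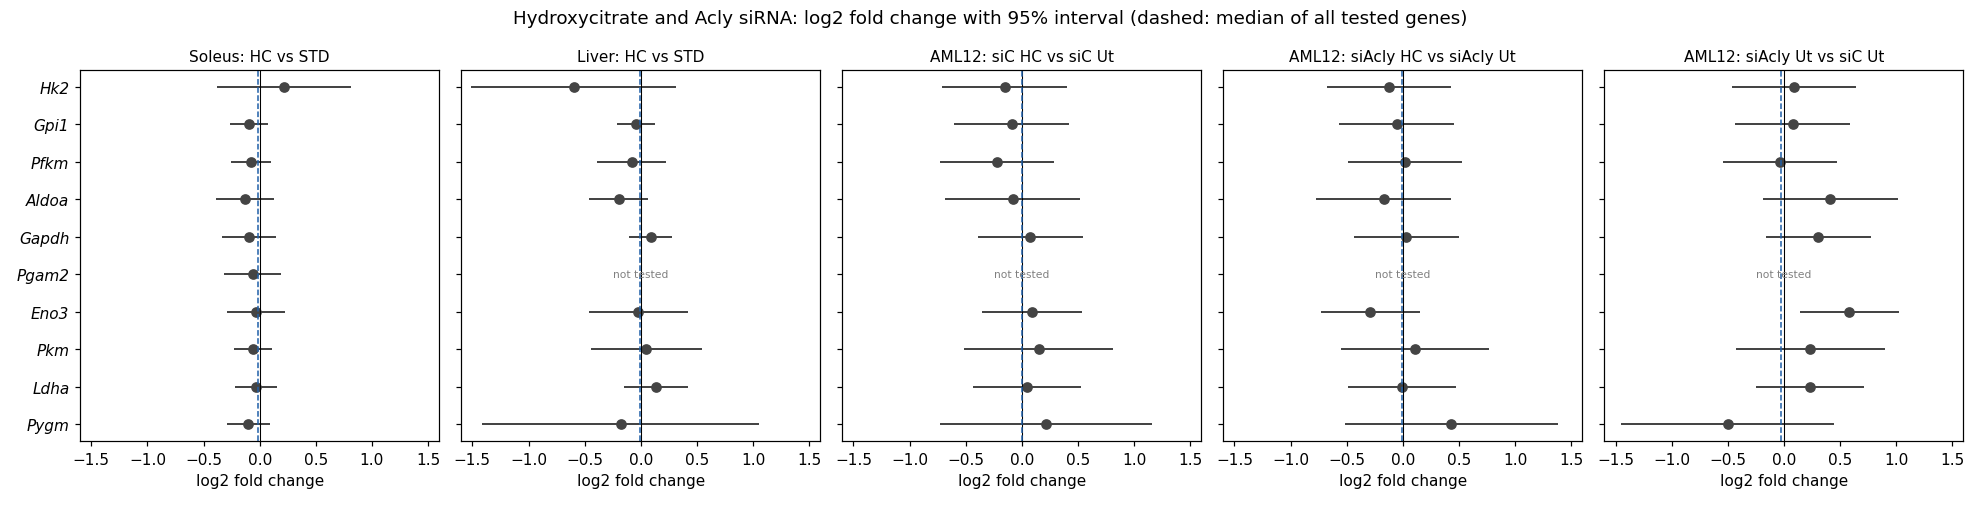
Log2 fold changes of the enzymes with HC in soleus, liver and AML12 cells, and with Acly siRNA in AML12 cells, with 95% intervals from limma and a dashed line at the median of all tested genes. No point passed the adjusted limit, and in soleus the interval of Hk2 (−0.37 to 0.80) is the widest.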

How the data were processed

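RNA-seq values of 59 libraries in 17 groups were used. The authors trimmed reads (FASTQ toolkit 1.0.0), aligned them to mm10 (RNAseq Alignment 2.0.2, based on STAR) and scaled the counts of each gene with median-of-ratios factors (DESeq2, Illumina package 1.1). The deposited signal values are these normalized values, not counts, and at a tolerance of 0.01 only 2.81% to 15.1% of them were whole multiples of the most frequent value under 2 of their library, so reads were not rebuilt and depth is unknown. A library summed to 8.35 M to 30.2 M. Log2(value + 1) was fitted with limma 3.58.1 (R 4.3.3, trend), all groups of a table together, for genes at 10 or more in at least 3 libraries (gastrocnemius, AML12) or 5 (soleus, liver), with Benjamini-Hochberg adjustment at 0.05 over all of them. The added 1 makes fold changes of low genes smaller. The script was tested on simulated data. The alternatives were no limit on low values, pseudocounts of 0.5 and 5, total and quantile scaling, only the compared groups, library number series, replicate block and leaving out each library. The plan divided levels by the union of exons, and the longest principal coding transcript replaced it after the data were seen. The 10 enzymes and the 17 gene lists were chosen with earlier results of these data known. Named were all 10 enzymes, of each pathway list up to 2 highest and 2 lowest that passed (else the 2 most abundant), and each enzyme's nearest profile. Same-numbered soleus libraries deviated together with r of −0.112 to 0.403 and liver libraries with 0.0243 to 0.0833, so numbers were not taken as pairs. Some genes of the enzyme families are not reported here.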

Additional observations from a re-analysis of the deposited data

Results flagged for a closer look

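In groups of 5, 7 values stood apart by the gap to the nearest library, of 38 tested in soleus and liver, where chance gives about 1 in 20 for a single test. Values of the same library are not independent, so the count is only a description. In soleus they were replicate 1 of HC for Pgam2 (10758) and Gpi1 (7178), replicate 1 of STD for Gapdh (27631) and Pgam2 (10277), all the highest of their group, and replicate 5 of STD for Hk2 (9977). Both replicates 1 also had the lowest scores on the first component over all soleus genes, −39.4 for HC and −24.4 for STD. In liver, Pygm was lowest in HC replicate 1 (7.12) and highest in STD replicate 5 (66.68), the library with the highest myofibre sum. None of these values was in a comparison that passed the test.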

How the results depend on the processing

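In CTX-HC at 2 DPI against C, 1 enzyme passed as reported, 0 with no limit on low values or with the number series as a covariate, 2 after quantile scaling, 3 after total scaling (which moved the median of all genes to 0.43) and 6 with only the 2 groups fitted. Leaving out 1 library gave 0 to 2, and leaving out both libraries that stood apart gave 7. The median log2 fold change of the enzymes was −1.09 as reported, −0.57 after total scaling and −0.55 after quantile scaling. All genes passing numbered 1393 as reported, 942 with no limit, 232 with the covariate, 3641 with total scaling, 2321 with quantile scaling, 4307 with only the 2 groups, and 33 to 2136 without 1 library. Between 2 and 30 DPI with HC, 0 passed as reported, 1 after quantile scaling, 0 to 7 without 1 library (7 without CTX-HC 30 DPI replicate 3, which took all genes from 1367 to 5064) and 7 without both. The median of the enzymes there was 0.85 as reported, 0.42 after total scaling (−0.34 for all genes) and 0.36 after quantile scaling (0.10 for all genes). Centring on 10 myofibre genes, which moved the median of all genes to −0.99, gave 2 there: Hk2 at −1.28, and Pkm at −0.62 (adjusted p = 0.0417) where the reported value was 0.38. The cause was not tested. All genes passing went from 36 to 1139 between 2 and 30 DPI with CTX alone without both libraries, and from 23 to 188 between siAcly and siC with the number series as a covariate. No enzyme passed in the other 13 comparisons under any alternative run, and pseudocounts changed no call. With a replicate block, 0 enzymes passed in soleus and 0 in liver. No paired analysis was possible in gastrocnemius and AML12 cells because their replicate numbers follow only the order of listing. The other 254 sign changes were of values called in neither fit, and the largest reported value among them was 0.88 in size. With unknown depth, values of about 10 and under, as for Pygm and Hk2 in liver, carry the least weight.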
